A study of Canis lupus familiaris with 17 samples.

Results

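Chemokine ligands were followed by name through the circulating leukocytes of 17 dogs. The list held 7 ligands (CCL5, CCL4, CCL3, CXCL8, CXCL10, CXCL16 and XCL1), and a gene was a member if its symbol was listed among the genes counted. Of the 7, 6 were found in all 17 matrices, among 20257 gene symbols. XCL1 had no row under this name and was not analysed here. The identifiers were ENSCAFG00000018171 (CCL5), ENSCAFG00000018164 (CCL4), ENSCAFG00000018167 (CCL3), ENSCAFG00000003029 (CXCL8), ENSCAFG00000008584 (CXCL10) and ENSCAFG00000015892 (CXCL16). CCL4 and CCL3 are related genes, and how the counting treated reads that could belong to either was not tested.

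Single-cell RNA sequencing had been done on blood of 7 client-owned healthy dogs and 10 dogs with osteosarcoma (OS), a malignant tumor of bone, with 1 library per dog. All dogs are labelled wild type and none had been treated for the tumor before sampling, so no agent separates the groups. The dogs with OS had a primary tumor in place when blood was drawn. They were older on average than the healthy dogs and included both the youngest and the oldest dog. The study names age as a possible confounder, and the dogs' ages are used below as a covariate. Leukocytes came from the interface of a density gradient and are labelled peripheral blood mononuclear cells, yet neutrophils made up 6.76% of the cells of the average dog and platelets 4.09%. Values are counts of unique molecular identifiers (UMIs, 1 per captured transcript), summed over the cells of a class in each dog and scaled to 1000000 UMIs of that sum (CPM). The dog is the replicate throughout.

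Chemokines are small secreted proteins that draw leukocytes along a gradient through G protein-coupled receptors. CCL5 and CCL3 act through CCR1, among other receptors. With CCL4 they are known as products of activated cytotoxic lymphocytes and macrophages. CXCL8 (interleukin-8) recruits neutrophils through CXCR1 and CXCR2 and is induced by NF-kB. CXCL10 is induced by interferons and draws T cells through CXCR3. CXCL16 is made as a membrane protein, is shed by proteases such as ADAM10 and binds CXCR6.

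After filtering, 80774 cells remained, from 1227 to 6670 per dog, with 7208922 to 39722601 UMIs per dog. Of 79926 distinct barcodes among them, 843 occurred in more than 1 library. Clusters were named from marker genes, with the chemokines and their receptors left out of clustering and naming. A chemokine expressed together with genes that form a class can still differ between classes through how they were built. CD8A, LYZ and S100A12 were in the marker lists of their classes, so their levels describe the named classes and are no test of the names. CD8A, which marks cytotoxic T cells, stood at 198 ± 67.6 CPM (SD, n = 17) in effector CD8 T cells and at 0 in the sums of NK cells of the 4 dogs with at least 25. NK cells of other dogs did hold CD8A UMIs, as they made up to 2.84% of the CD8A-positive cytotoxic cells of a dog with OS. LYZ (lysozyme) stood at 20670 ± 4619 CPM (SD, n = 17) in monocytes, and the neutrophil gene S100A12 at 19164 ± 5327 CPM (SD, n = 17) in neutrophils. In the sums of a class, fewer cells that express a gene and less RNA per cell cannot be told apart, so shares of cells are given beside the levels. Healthy dog 1 and OS dog 2 were the 2 highest dogs for 4 of the 6 chemokines in monocytes. Their values are given with most results that rest on them, and the values without them were added after the data had been seen. Of the neutrophils, 34.4% came from healthy dog 7.

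**Figure D1:**
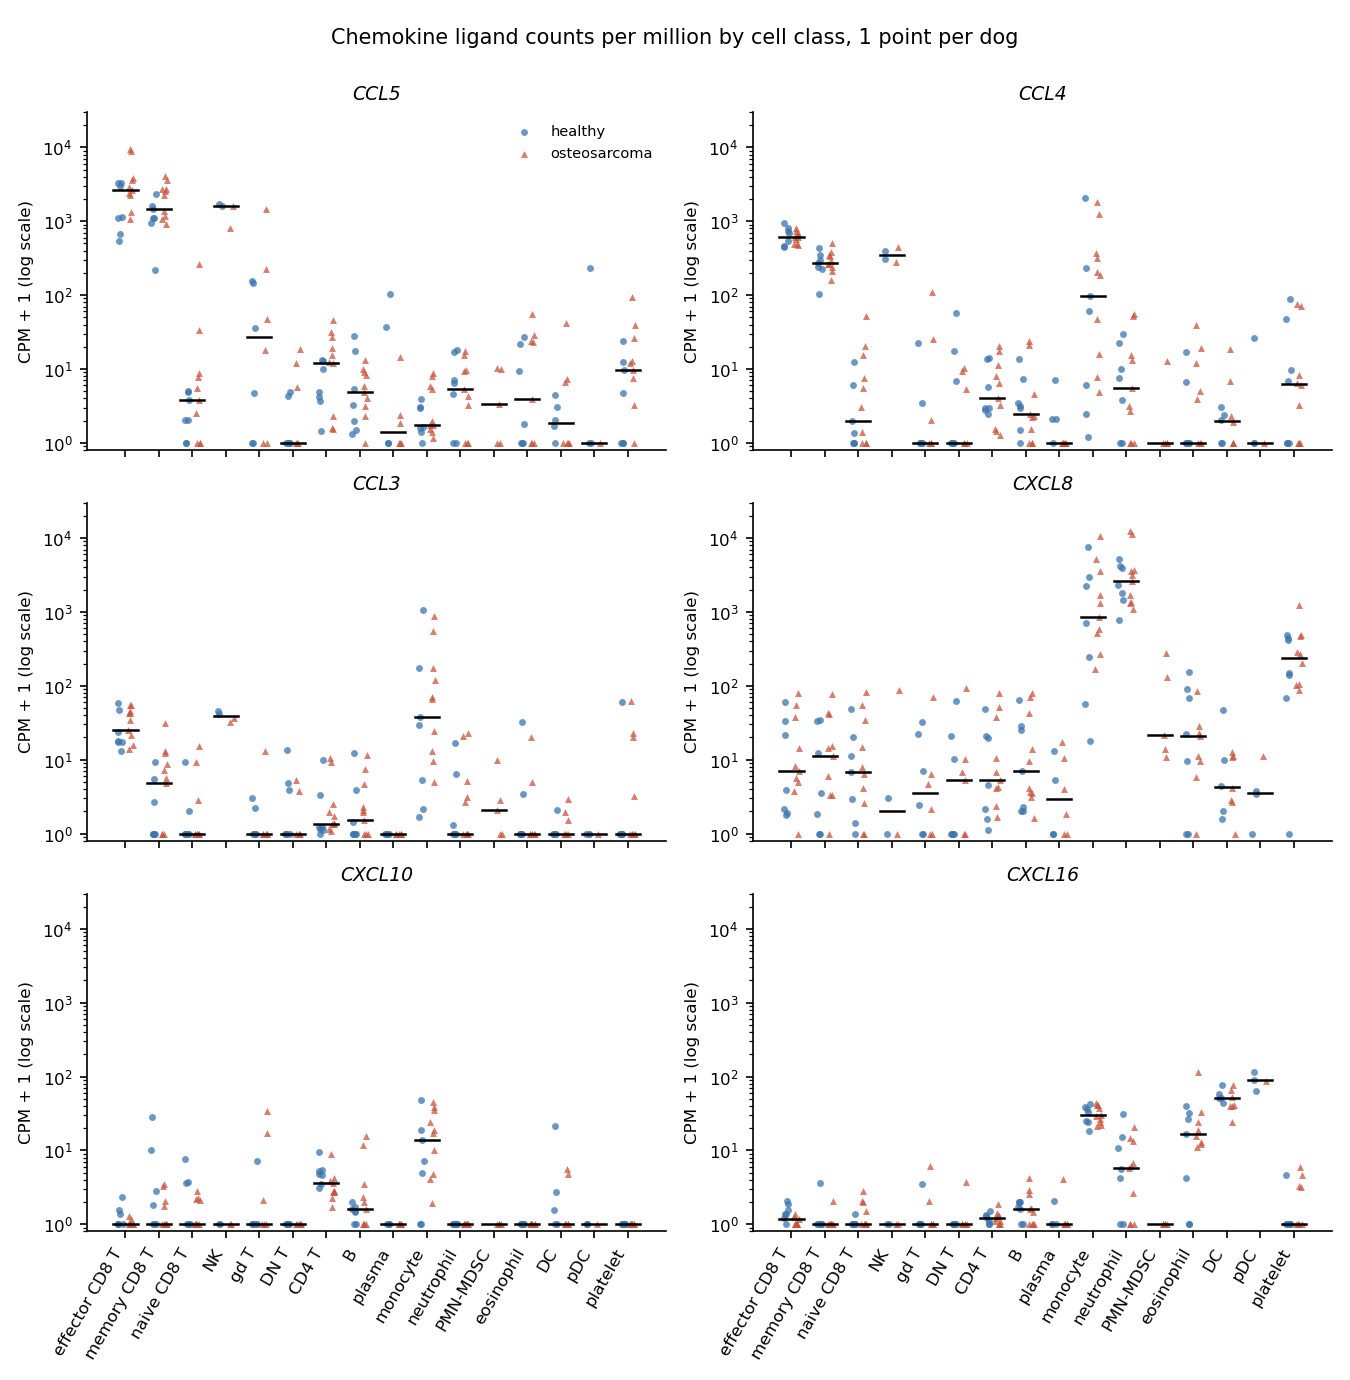
CPM of the 6 chemokine ligands in 16 cell classes. The vertical axis is CPM with 1 added on a log scale, circles are healthy dogs, triangles are dogs with osteosarcoma, black lines are medians over dogs, and only dogs with at least 25 cells of a class are drawn. CCL5 is highest in the cytotoxic classes, CXCL8 in monocytes and neutrophils, and CCL4 in both cytotoxic classes and monocytes, where its points run from 0.188 to 2065 CPM.

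CCL5, which attracts T cells, monocytes and eosinophils, was a transcript of cytotoxic lymphocytes in every dog. In effector CD8 T cells its level ran from 540 CPM in healthy dog 2 through a median of 2652 to 9578 in OS dog 9, with a mean of 3034 ± 2590 CPM (SD, n = 17). Memory CD8 T cells ran from 216 through 1484 to 4107 CPM, and NK cells stood at 1436 ± 423 CPM (SD, n = 4). The memory class is mixed. It joins 852 cells of a cytotoxic cluster with 845 cells that clustered among the CD4 T cells and were named from their markers. Naive CD8 T cells, which have not met antigen, had a median of 2.79 CPM. CCL5 was higher in effector than in naive CD8 T cells in 17 of 17 dogs, by 9.16 ± 1.69 (SD) on the scale of log2(CPM + 1) (paired permutation test, adjusted p = 0.000107 over 16 pairs chosen after the levels had been seen). KLRD1, GZMB and GZMA, the genes most like CCL5 in level, helped to name the effector class. The part of the naming in this difference was not tested.

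The order of the 3 highest classes depended on the processing. Effector exceeded memory CD8 T cells in 13 of 17 dogs, by 0.56 ± 0.93 (SD) on the log2 scale (paired permutation test, p = 0.0281, adjusted p = 0.206 over 88 pairs of neighboring classes). Neighbors were set by the order of mean levels in these same dogs, so the 88 pairs were not fixed beforehand. With no correction across dogs in the clustering, effector exceeded memory CD8 T cells by 1.42 (adjusted p = 0.00722). Memory CD8 T cells and NK cells differed by 0.42 ± 0.79 (SD) in 4 dogs, where the exact test allows no p below 0.125 and gave p = 0.5. At a lower clustering resolution NK cells led.

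Other lymphocytes held little CCL5. Gamma-delta T cells had a median of 26.0 CPM and a mean of 174 ± 413 CPM (SD, n = 12), since the highest dogs stood far above the rest. Th1-like CD4 T cells, helper cells of the interferon-gamma type, stood at 37.8 ± 47.2 CPM (SD, n = 17), above the naive CD4 class, in which 2047 of 11024 cells came from a cluster that scored best for central memory, in 14 of 17 dogs (2.16 ± 2.15 on the log2 scale, paired permutation test, adjusted p = 0.00157 over the same 16 pairs). Of the 965 CCL5 UMIs in Th1-like cells, 111 lay in a single cell of OS dog 4, and 150 of 4806 cells held any. B cells, which are not a known source, stood at 6.12 ± 7.06 CPM (SD, n = 17), which was 0.23% of the effector level on average.

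Of all CCL5 UMIs in named classes, effector CD8 T cells gave 76.4% ± 13.3 (SD, n = 17), memory CD8 T cells 16.2% ± 10.9 and NK cells 4.77% ± 4.05, while these classes held 13.02, 2.29 and 0.496% of the cells.

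**Figure D2:**
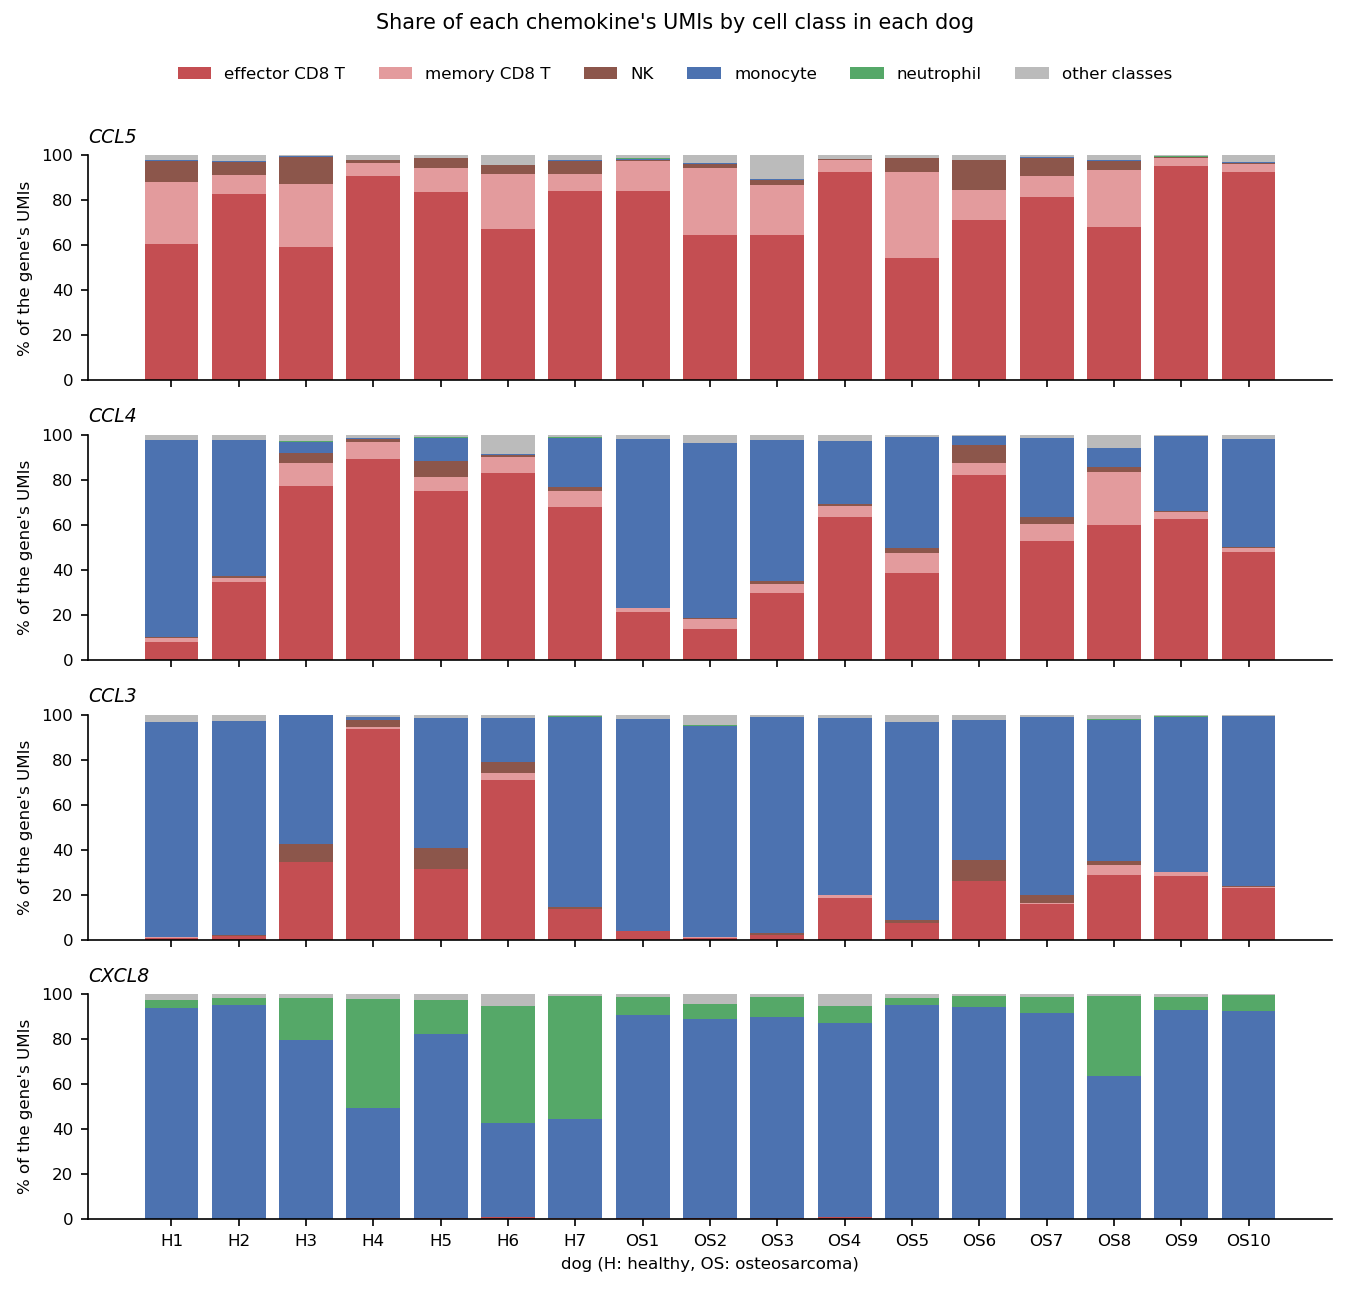
Share of the UMIs of CCL5, CCL4, CCL3 and CXCL8 that each cell class gave, 1 bar per dog (H healthy, OS osteosarcoma), each bar adding to 100%. Effector CD8 T cells gave between 54.3 and 95.5% of CCL5 in every dog, whereas the monocyte share of CCL4 ran from 0.14 to 87.7%.

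Among the CD8A-positive cytotoxic cells (cells of the classes named CD8 T or NK with at least 1 CD8A UMI, 7319 in all), CCL5 varied widely both between dogs and between the cells of a dog. To set cells of unequal depth side by side, each was thinned to 2000 UMIs, which left out 0.756% of these cells in healthy dogs and 1.24% in dogs with OS. A CCL5 UMI was then found in 19.0% of cells in the lowest dog and 92.3% in the highest, with a mean of 44.3% ± 21.3 (SD, n = 17). Without thinning the mean was 47.1%. The share in B cells, also after thinning, was 0.778% ± 0.728 (SD, n = 17), with median depths of 4021 UMIs in B cells and 4308 in effector CD8 T cells.

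Within a dog the counts were spread out far beyond the Poisson expectation of 1. The variance over the mean of CCL5 counts was 11.8 ± 4.05 (SD, n = 17) after thinning. The 10% of the cells with the highest counts held 55.6% ± 17.8 (SD, n = 17) of the CCL5 UMIs, from 19.8% in the dog where nearly all cells had the transcript to 80.5%. Part of the spread lay between classes: 52.3% ± 21.5 (SD, n = 17) of the effector cells with CD8A held CCL5, 44.8% ± 14.3 (SD, n = 15) of the memory cells and 0.601% ± 0.838 (SD, n = 10) of the naive cells. Within effector cells alone the variance over the mean was still 10.8 ± 3.94 (SD, n = 17). Cytotoxic cells without a CD8A UMI had CCL5 in 36.9% ± 21.1 (SD, n = 17).

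**Figure D3:**
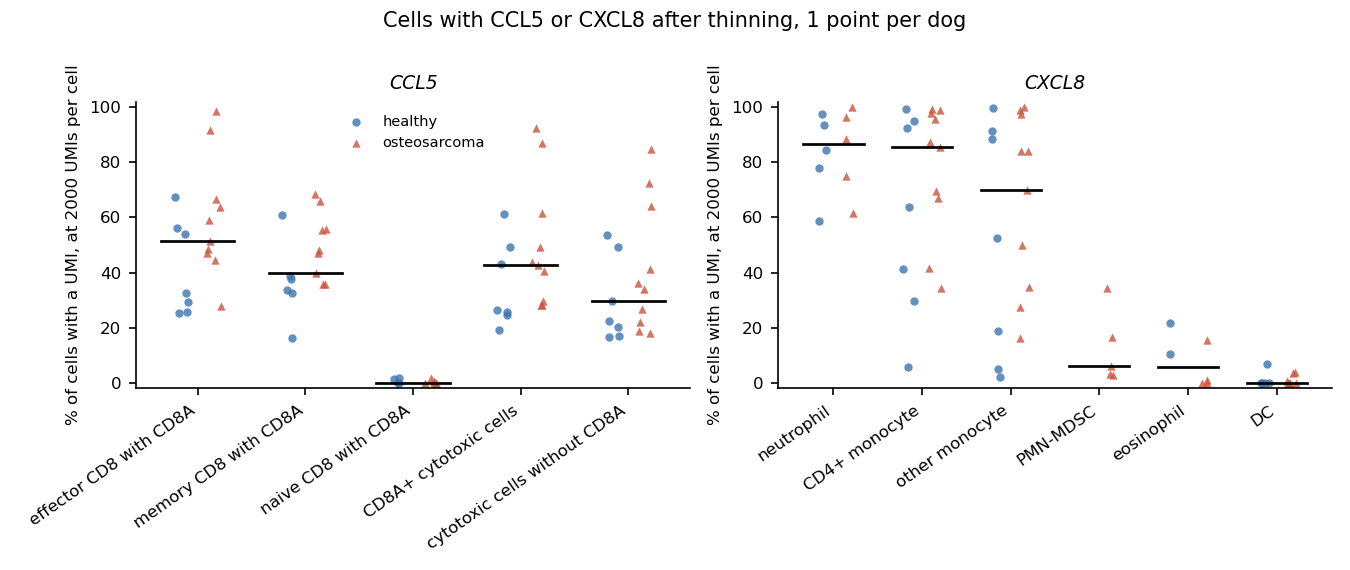
Percentage of cells with at least 1 UMI of CCL5 (left) or CXCL8 (right) after each cell was thinned to 2000 UMIs, by cell class, 1 point per dog with at least 25 such cells. Circles are healthy dogs, triangles are dogs with osteosarcoma and black lines are medians. Nearly no naive CD8 T cell held CCL5, and in monocytes the share of cells with CXCL8 ran across almost the whole axis, from 2.28% of cells in the lowest dog to all cells in the highest in the monocytes that are not CD4+.

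CCL4, a chemokine released by cytotoxic cells, had the steadiest level of the members in effector CD8 T cells and one of the widest in monocytes. In effector CD8 T cells it ran from 443 CPM in healthy dog 6 through 607 to 931 in healthy dog 1, with a mean of 632 ± 141 CPM (SD, n = 17) and a coefficient of variation over dogs of 22.3%. For CCL5 in the same sums it was 85.4%, and the highest dog exceeded the lowest 2.10-fold for CCL4 and 17.7-fold for CCL5. NK cells stood at 356 ± 78.4 CPM (SD, n = 4) and memory CD8 T cells at 289 ± 98.98 CPM (SD, n = 17). After thinning, 59.8% ± 5.97 (SD, n = 17) of effector cells held CCL4, from 50.3 to 70.0%, against 0.859% ± 1.397 (SD, n = 17) of B cells.

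In monocytes CCL4 ran from 0.188 CPM in healthy dog 6 through 96.7 to 2065 in healthy dog 1, with a mean of 393 ± 657 CPM (SD, n = 17). After healthy dog 1 came OS dog 2 at 1818 CPM and OS dog 1 at 1254, and no other dog exceeded 375.6 CPM. Without healthy dog 1 and OS dog 2 the mean was 187 ± 320 CPM (SD, n = 15). Effector CD8 T cells exceeded monocytes in 14 of 17 dogs, by 3.18 ± 3.24 (SD) on the log2 scale (paired permutation test, adjusted p = 0.0141 over the 88 pairs). Healthy dog 1, OS dog 1 and OS dog 2 were the 3 exceptions.

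Which class gave most of the CCL4 therefore changed from dog to dog. Effector CD8 T cells gave between 7.89 and 89.3% of its UMIs and monocytes between 0.14 and 87.7%. Averaged over dogs the shares were 53.4% ± 25.3 and 35.7% ± 29.4 (SD, n = 17), but with the UMIs of all dogs pooled they were 32.5 and 60.6%, since the dogs with the most monocyte CCL4 weigh most there.

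CCL3, which binds CCR1, was counted more in monocytes than in any other class in 15 of 17 dogs, by number of UMIs. By level the order differed. Effector CD8 T cells ran from 12.0 to 57.8 CPM in healthy dogs and from 12.8 to 54.2 in dogs with OS. In healthy dogs 3, 4 and 6 and OS dogs 5, 6 and 8 monocytes lay below every effector value of their group. In healthy dogs 1 and 2 and OS dogs 1, 2, 3, 4, 9 and 10 they lay above every such value. The monocyte level of CCL3 ran from 0.674 CPM in healthy dog 4 through 37.3 to 1050 in healthy dog 1, with OS dog 2 next at 868.2 CPM and a mean of 188 ± 321 CPM (SD, n = 17). Without these 2 dogs the mean was 85.4 ± 143 CPM (SD, n = 15). The highest dog exceeded the lowest 1558-fold. After thinning, 14.5% ± 18.4 (SD, n = 17) of monocytes held CCL3, from 0.107 to 57.1%, against 0.493% ± 0.911 (SD, n = 17) of B cells. The CCL3 level of B cells was 5.39% of the monocyte level on average and 64.4% in the highest dog.

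In effector CD8 T cells and NK cells CCL3 was steadier, at levels that overlapped those of monocytes. NK cells stood at 38.1 ± 5.50 CPM (SD, n = 4), and effector CD8 T cells ran from 12.0 through 24.6 to 57.8 CPM with a mean of 31.1 ± 16.2 (SD, n = 17). Memory CD8 T cells stood at 5.34 ± 7.66 CPM (SD, n = 17). Effector CD8 T cells exceeded the next class in the order, platelets, in 14 of 16 dogs (3.48 ± 2.33 on the log2 scale, paired permutation test, adjusted p = 0.0088 over the 88 pairs). Monocytes and NK cells could be set against each other in 4 dogs only. NK cells were the higher in healthy dogs 3 and 5 and OS dog 6, and monocytes in OS dog 2, a difference of -0.43 ± 3.61 (SD) for monocytes against NK cells on the log2 scale, where the exact test allows no p below 0.125 and gave p = 0.875. Monocytes gave 71.2% ± 26.8 (SD, n = 17) of the CCL3 UMIs and effector CD8 T cells 23.5% ± 25.3. Effector cells gave the larger share in 2 dogs, 93.8% in healthy dog 4 and 71.0% in healthy dog 6, which were the 2 lowest dogs in monocytes, and their share was 34.2% in healthy dog 3 and 31.4% in healthy dog 5.

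CCL4 and CCL3 occurred together in monocytes. Among monocytes with CCL4, 35.2% ± 19.5 (SD, n = 12) also held CCL3, against 11.4% ± 9.24 of those without, and the first share was higher in 12 of the 12 dogs with enough cells. Among effector CD8 T cells, CCL4 was in 63.3% ± 5.79 (SD, n = 17) of those with CCL5 and 56.3% ± 11.2 of those without, higher in 14 of 17 dogs. These shares are from cells thinned to the same depth and are given as a description, since cells of 1 dog are not replicates.

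CXCL8 was carried by both monocytes and neutrophils, at levels that differed widely between dogs. In neutrophils it ran from 779 CPM in healthy dog 6 through 2620 to 12551 in OS dog 3, with a mean of 3654 ± 3378 CPM (SD, n = 17). In monocytes it ran from 16.7 CPM in healthy dog 6 through 862 to 10638 in OS dog 2, with healthy dog 1 next at 7512 CPM and a mean of 2270 ± 2983 CPM (SD, n = 17). Without healthy dog 1 and OS dog 2 the monocyte mean was 1363 ± 1524 CPM (SD, n = 15) and the neutrophil mean 3098 ± 2900 CPM (SD, n = 15). The highest monocyte level exceeded the lowest 636-fold and the highest neutrophil level the lowest 16.1-fold.

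Neutrophils exceeded monocytes in 15 of 17 dogs, by 1.69 ± 1.77 (SD) on the log2 scale (paired permutation test, adjusted p = 0.0088 over the 88 pairs), and monocytes exceeded platelets, at 308 ± 299 CPM (SD, n = 16), in 15 of 16 (adjusted p = 0.00902). Per cell, CXCL8 UMIs averaged 25.1 ± 31.9 in monocytes and 6.12 ± 5.23 in neutrophils (SD, n = 17), at median depths of 11109 and 1720 UMIs. The monocyte value was the higher in 12 dogs, and the neutrophil value in healthy dogs 3, 4 and 6 and OS dogs 6 and 8. Without healthy dog 1 and OS dog 2 the means were 15.6 ± 17.3 and 5.19 ± 4.34 UMIs per cell (SD, n = 15). Monocytes gave 80.5% ± 18.6 (SD, n = 17) of all CXCL8 UMIs and neutrophils 17.04% ± 18.3, and the neutrophil share was highest in healthy dog 7 at 54.4%.

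The other granulocyte classes held little CXCL8. Polymorphonuclear myeloid-derived suppressor cells (PMN-MDSCs), named here from markers such as CAMP, stood at 90.3 ± 116 CPM (SD) in the 5 dogs with at least 25 such cells, all with OS, and were lower than neutrophils in 5 of 5 dogs by 6.03 ± 1.17 (SD) on the log2 scale. The exact p was 0.0625, the smallest that 5 dogs allow. Eosinophils, a class that here joins a cluster scored as eosinophil and another of 1360 of its 2358 cells scored as basophil, stood at 34.5 ± 44.6 CPM (SD, n = 15), lower than neutrophils in 15 of 15 dogs (paired permutation test, adjusted p = 0.00028 over the 16 pairs).

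Among monocytes, 1 cluster expressed CD4 (555 ± 116 CPM, against 16.7 ± 12.4 in the other monocytes, SD, n = 17) and is called CD4+ monocytes here. Its best-scoring marker list was that of monocytic myeloid-derived suppressor cells, with IL1B, IL18, KCNJ2, STEAP4, MEFV and CPXM2 among its leading genes, so the class may not match CD4+ monocytes as the study names them. It had more CXCL8 and less CCL3 and CXCL10 than the other monocytes. CD4+ monocytes stood at 3444 ± 4291 CPM (SD, n = 17) of CXCL8 against 2042 ± 2684 in the other monocytes, higher in 17 of 17 dogs by 1.11 ± 0.69 (SD) on the log2 scale (paired permutation test, adjusted p = 0.000107 over the 16 pairs). OS dog 2 was the highest dog in both classes. CCL3 was lower in CD4+ monocytes in 17 of 17 dogs, by -0.85 ± 0.63 (SD, adjusted p = 0.000107), and CXCL10 in 14 of 17 dogs, with both at 0 in healthy dogs 4 and 6, by -1.66 ± 1.80 (SD, adjusted p = 0.00211). For CCL4 the difference was -0.04 ± 0.44 (SD, adjusted p = 0.803) and for CXCL16 -0.14 ± 0.39 (SD, adjusted p = 0.218). S100A12, a marker in that list, stood in CD4+ monocytes at 2634 ± 609 CPM against 109 ± 41.2 in the other monocytes (SD, n = 17), and the median depth was 7179 UMIs against 12016. IL1B and NFKBIA, which went with CXCL8 over dogs, were in the lists used to name this class. IL1B stood at 1525 ± 1267 CPM in CD4+ monocytes against 356 ± 417 in the other monocytes (SD, n = 17). The part of the naming, of S100A12 and of depth in the CXCL8 difference was not tested. Interferon-signature monocytes exceeded the other monocytes in CXCL8 in 10 of 10 dogs by 0.20 ± 0.14 (SD, adjusted p = 0.00422).

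Over the 18106 myeloid cells kept by thinning, the share with CXCL8 ran from 4.34 to 93.8% among dogs, with a mean of 54.6% ± 30.6 (SD, n = 17), and over all 23705 without thinning the mean was 61.0%. Thinning to 2000 UMIs left out 70.4% of the neutrophils of healthy dogs and 73.7% of those of dogs with OS, against 2.71 and 2.01% of the monocytes, so monocytes weigh most in this value. Among the neutrophils kept, 83.3% ± 14.8 (SD, n = 10) held CXCL8. In CD4+ monocytes the share was 70.8% ± 30.0, in the other monocytes 60.02% ± 36.2 (both SD, n = 17), in PMN-MDSCs 12.6% ± 13.4 (SD, n = 5), in eosinophils 8.14% ± 9.21 (SD, n = 6) and in dendritic cells 1.24% ± 2.24 (SD, n = 12). The share of B cells with CXCL8 is not given here, so the low shares are not set against a background. The variance over the mean was 5.05 ± 2.40 (SD, n = 17) over the myeloid cells kept and 3.00 ± 1.21 within the other monocytes. In the highest dog all of the other monocytes held CXCL8 and in the lowest 2.28%.

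CXCL8 was also found at a low level in lymphocytes, and there it followed the monocytes. B cells stood at 20.4 ± 26.8 CPM (SD, n = 17), between 0.0377 and 1.49% of the neutrophil level of the same dog, and effector CD8 T cells at 19.2 ± 24.4. OS dog 2 was the highest dog in both. Across dogs, CXCL8 in B cells went with CXCL8 in monocytes (Pearson r = 0.866, Spearman rho = 0.931, n = 17, permutation adjusted p = 5e-05 for each over 10 relations). Within healthy dogs r was 0.93 (n = 7, exact permutation adjusted p = 0.0161) and within dogs with OS 0.879 (n = 10, permutation adjusted p = 0.00505). Without the 2 dogs farthest from the median r was 0.915. Of other myeloid transcripts, LYZ was present in B cells at 3.71% of its monocyte level, CSF3R at 0.195% of its neutrophil level and S100A12 at 0.0141% of its level in PMN-MDSCs (n = 5). The part of free RNA in the lymphocyte CXCL8 was not tested.

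Several chemokines went together over dogs in the sums of myeloid cells, and CXCL16 showed no such relation. The mix of classes in these sums differed, with monocytes at 22.2 to 73.4% in healthy dogs and 49.3 to 79.1% in dogs with OS. The part of this mix in the relations was not tested. CPM in these relations were scaled by the TMM normalization factors of edgeR. In myeloid cells, log2 CPM of CXCL8 went with CCL4 (r = 0.927, rho = 0.934) and CCL3 (r = 0.92, rho = 0.951), each with a permutation adjusted p of 2.75e-05 for r over 11 relations and n = 17. It also went with NFKBIA, the NF-kB inhibitor that NF-kB itself induces (r = 0.931, rho = 0.914), and IL1B, interleukin-1 beta (r = 0.898, rho = 0.863), with the same adjusted p for r. For TNF, the tumor necrosis factor, r was 0.757 and rho 0.821 (permutation adjusted p = 0.000946 for r, n = 17). These 5 relations stayed past 0.05 within healthy dogs, within dogs with OS, without the 2 dogs farthest from the median and without healthy dog 1. For CXCL16 r was -0.08 and rho 0.06 (permutation adjusted p = 0.759 for r, n = 17).

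**Figure D4:**
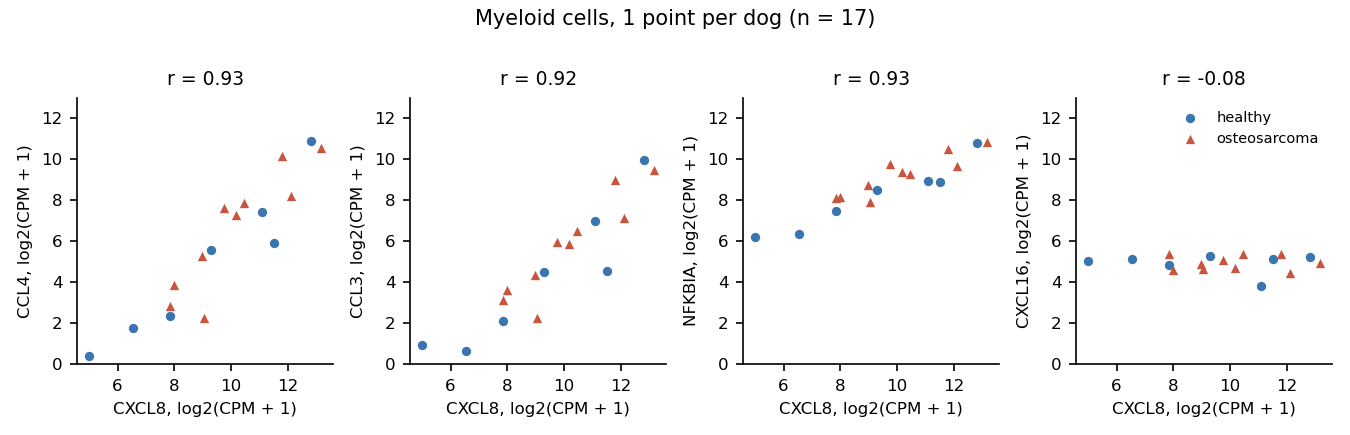
CCL4, CCL3, NFKBIA and CXCL16 against CXCL8 in the myeloid cells of each dog, on the scale of log2(CPM + 1), with Pearson's r above each panel (n = 17, circles healthy, triangles osteosarcoma). CCL4, CCL3 and NFKBIA climb with CXCL8 across dogs of both groups, and CXCL16 is flat.

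The same dogs stood at the top for most of these genes. In monocytes healthy dog 1 and OS dog 2 were the 2 highest dogs for CCL4, CCL3, CXCL8 and CXCL10, and also for NFKBIA (1868 and 2189 CPM) and TNF (103 and 110 CPM). For IL1B they ranked 4 and 2 (1050 and 1407 CPM), below OS dog 1 at 1934, and for CXCL16 they ranked 7 and 6, at 35.9 and 36.6 CPM. For CXCL10 the next dog, OS dog 10 at 38.2 CPM, lay close to them. Their monocytes were of ordinary depth, with medians of 10987 and 10352 UMIs over 851 and 616 cells.

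Between classes, the CXCL8 levels of monocytes and neutrophils went together over dogs (r = 0.777, rho = 0.775, n = 17, permutation adjusted p = 0.00117 for r over the 10 relations). Within dogs with OS r was 0.829 (n = 10, permutation adjusted p = 0.00887). Within healthy dogs it was 0.822 (n = 7, exact permutation adjusted p = 0.0798), and without the 2 farthest dogs 0.807. CCL4 in monocytes and in effector CD8 T cells gave r = 0.453 (rho = 0.441, permutation adjusted p = 0.115 for r, n = 17), and CCL3 in the same classes r = 0.006 (rho = -0.025, permutation adjusted p = 0.999 for r, n = 17). CXCL8 in monocytes was set against cells kept, median depth, mitochondrial percentage and the share of monocytes in each dog, and no adjusted permutation p fell below 0.221 (n = 17). The strongest relation was with the median mitochondrial percentage (r = -0.472, rho = -0.461, permutation p = 0.0552, adjusted p = 0.221, r = -0.445 without the 2 farthest dogs). For CCL5 in effector CD8 T cells and the same measures, the strongest relation was with the share of effector cells among the leukocytes (r = 0.576, rho = 0.444, n = 17, permutation p = 0.016, adjusted p = 0.128 over 8 relations, r = 0.46 without the 2 farthest dogs).

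In CD8A-positive cytotoxic cells CCL5 went with GZMB, the protease granzyme B (r = 0.749, rho = 0.596, permutation adjusted p = 0.00132 for r, n = 17). It also went with CCL3 (r = 0.621, rho = 0.625, adjusted p = 0.011) and GZMA, granzyme A (r = 0.527, rho = 0.515, adjusted p = 0.0406). For CCL4, r was 0.429 and rho 0.385 (permutation adjusted p = 0.0935 for r, n = 17). Within healthy dogs the relation with GZMB had r = 0.706 (n = 7, exact permutation adjusted p = 0.121) and that with CCL3 r = 0.353 (exact permutation adjusted p = 0.484). Within dogs with OS that with GZMA had r = 0.369 (n = 10, permutation adjusted p = 0.328). IFNG, interferon-gamma, had 86 UMIs in these cells, too few to read a relation from. The mix of classes in these sums differed between dogs. Naive CD8 T cells, nearly none of which held CCL5, made up 13.2% ± 7.67 (SD, n = 7) of the CD8A-positive cells in healthy dogs. In dogs with OS they made up 16.3% ± 14.1 (SD, n = 10). The part of this mix in the relations of CCL5 with GZMB, CCL3, GZMA and CCL4 was not tested. CCL5 of effector and memory CD8 T cells gave r = 0.639 (rho = 0.498, n = 17, permutation adjusted p = 0.0131 for r), and without the 2 farthest dogs r was 0.524 (n = 15, permutation p = 0.0461, adjusted p = 0.115).

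CXCL10 was sparse, with 3019 UMIs in 774 cells, most of them in monocytes and CD4 T cells. Monocytes ran from 0 CPM in healthy dogs 4 and 6 through 12.8 to 47.3 in healthy dog 1, with OS dog 2 next at 44.6 and a mean of 16.4 ± 15.9 CPM (SD, n = 17). After thinning, 1.56% ± 1.501 (SD, n = 17) of monocytes held it, against 0.211% ± 0.429 (SD, n = 17) of B cells. Interferon-signature monocytes, named from other interferon-induced genes, stood at 22.4 ± 20.3 CPM (SD, n = 10) and exceeded the other monocytes in 7 of 10 dogs (0.50 ± 1.202 on the log2 scale, permutation adjusted p = 0.277 over the 16 pairs). ISG15, an interferon-induced ubiquitin-like protein, stood at 298 ± 165 CPM (SD, n = 10) in the same cells. Neutrophils had 0 CXCL10 UMIs in 5072 cells, although their interferon-signature part held ISG15 at 2225 ± 806 CPM (SD, n = 4).

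CD4 T cells as a whole stood at 3.22 ± 2.14 CPM (SD, n = 17) of CXCL10, not far from the B cells at 2.01 ± 4.12 CPM (SD, n = 17). In the 15 dogs with CXCL10 in monocytes, the B-cell level was 16.3% of the monocyte level on average and up to 105%. The UMIs lay in few cells. Interferon-signature CD4 T cells, too few for a sum per dog, held 110 UMIs in 32 of 208 cells from 14 dogs. Pooled over dogs this was 90.1 CPM (exact Poisson interval 74.1 to 109, which covers counting error only). The pooled level was 6.22 CPM (5.37 to 7.17) in Th1-like cells and 1.18 CPM (0.932 to 1.48) in the naive CD4 class, central memory cells included. In Th1-like cells 31 of the 192 UMIs lay in a single cell of OS dog 4. Monocytes gave 61.6% ± 31.3 (SD, n = 17) of the CXCL10 UMIs of a dog and CD4 T cells 30.2% ± 28.2, from 2.11 to 96.2%. Over dogs the levels of these classes gave r = -0.193 (rho = -0.201, permutation adjusted p = 0.574 for r, n = 17).

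CXCL16 was steady over dogs and highest in dendritic cells and monocytes. Plasmacytoid dendritic cells stood at 88.2 ± 20.9 CPM (SD, n = 4), dendritic cells at 50.8 ± 15.7 (SD, n = 12) and monocytes at 30.4 ± 8.39 (SD, n = 17), where the dogs ran from 17.1 through 28.8 to 42.8 CPM. The coefficient of variation over dogs was 27.6% in monocytes, against 131% for CXCL8 and 167% for CCL4 in the same sums. Dendritic cells exceeded monocytes in 10 of 12 dogs, by 0.71 ± 0.43 (SD) on the log2 scale (paired permutation test, adjusted p = 0.0265 over the 88 pairs). Plasmacytoid dendritic cells exceeded dendritic cells in 4 of 4 dogs by 0.92 ± 0.41 (SD), with an exact p of 0.125, the smallest that 4 dogs allow, and with doublets kept dendritic cells led.

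Granulocytes held some CXCL16, at 23.3 ± 27.6 CPM (SD, n = 15) in eosinophils and 7.33 ± 8.34 (SD, n = 17) in neutrophils, where the highest dog reached 29.6 CPM. Monocytes and eosinophils were not separated (1.15 ± 1.65 on the log2 scale, higher in monocytes in 13 of 15 dogs, permutation adjusted p = 0.0949 over the 88 pairs). Lymphocytes held almost no CXCL16: there were 12 UMIs in 9942 effector CD8 T cells, and B cells stood at 0.76 ± 0.876 CPM (SD, n = 17). By number, monocytes gave 80.1% ± 9.84 (SD, n = 17) of the CXCL16 UMIs. ADAM10, which sheds CXCL16, was highest in neutrophils (186 ± 45.5 CPM, SD, n = 17), and the related ADAM17 in CD4+ monocytes (248 ± 81.2 CPM, SD, n = 17).

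The genes whose levels over 210 sums of a class in a dog were most like those of a member were found among 7769 genes, as a description. For CCL5 they were KLRD1, GZMB and GZMA (r = 0.893, 0.884 and 0.881) and for CCL4 GZMA, GZMB and NCR3 (r = 0.749, 0.719 and 0.717). For CCL3 they were MEFV, PTGS2 and MAFF (r = 0.624, 0.602 and 0.598), for CXCL8 SOD2, IL1B and FTH1 (r = 0.816, 0.788 and 0.781). For CXCL10 they were GPR132, FGF10 and IL1R1 (r = 0.569, 0.544 and 0.533), and for CXCL16 LRRC25, NPC2 and CLEC12A (r = 0.807, 0.785 and 0.784). The sums of a dog share a library, and KLRD1, GZMA, GZMB and NCR3 helped to name the cytotoxic clusters.

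Of 33 other chemokine ligands looked for, 23 were found, and 4 reached a mean of 10 CPM in a main class. PPBP (CXCL7), a platelet granule chemokine, stood at 9214 ± 2163 CPM and CCL14 at 3803 ± 1595 CPM in platelets (both SD, n = 16), where CXCL6 stood at 20.8 ± 18.5. CCL7, a monocyte attractant, stood at 11.4 ± 19.97 CPM (SD, n = 17) in monocytes, and CCL8 reached 21.8 ± 15.9 CPM (SD, n = 10) in interferon-signature monocytes only. Of 10 receptors of the members looked for, 9 were found. CCR1 was led by neutrophils (547 ± 162 CPM, SD, n = 17), and CCR3, the eosinophil receptor of CCL5, by eosinophils (136 ± 46.0, SD, n = 15). CXCR2, which binds CXCL8, stood at 27.6 ± 12.6 CPM (SD, n = 17) in neutrophils.

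The design also sets dogs with OS against healthy dogs. To be called, a gene needed an adjusted p under 0.01 with a log2 fold change of more than 0.58 in size, and no member was called. Counts summed per dog were fitted over all genes with edgeR's quasi-likelihood test in 7 populations, which gave 39 tests of members. edgeR called 0 of the 39, 3 had an unadjusted p below 0.05, and DESeq2 called 0 with 8 below 0.05. The populations overlap, so these are not separate tests. By DESeq2 the 8 were CCL5 in CD8A-positive cytotoxic and effector CD8 T cells, and otherwise CCL3 or CCL4. CCL4 was among them in myeloid cells and monocytes, and CCL3 in those, all leukocytes and CD4 T cells. In each of these CCL3 and CCL4 fits DESeq2 had replaced the count of healthy dog 1. The background called by edgeR was 0% of the genes tested in each of the 7 populations. Genes with an unadjusted p below 0.05 made up 4.22% in CD8A-positive cytotoxic cells, 4.69% in effector CD8 T cells, 3.59% in CD4 T cells, 5.76% in all leukocytes and in myeloid cells, 6.05% in monocytes and 4.6% in neutrophils. DESeq2 called 0.0185% of genes in all leukocytes, 0.00683% in myeloid cells, 0.0142% in monocytes and 0% elsewhere. Its shares with an unadjusted p below 0.05 were 6.2% in all leukocytes, 3.2% in CD8A-positive cytotoxic cells, 3.66% in effector CD8 T cells and in CD4 T cells, 5.87% in myeloid cells, 6.14% in monocytes and 3.11% in neutrophils.

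In CD8A-positive cytotoxic cells CCL5 ran from 308 CPM through 1128 to 2786 in healthy dogs and from 705 through 2271 to 8503 in dogs with OS. The groups overlapped, 3 of 10 dogs with OS lay above every healthy dog, and OS dogs 9 and 4 stood highest at 8503 and 8115 CPM. The log2 fold change was 1.14 with a standard error of 0.505 (edgeR p = 0.034, adjusted p = 0.9999). In effector CD8 T cells it was 1.07 with a standard error of 0.485 (edgeR p = 0.0379, adjusted p = 0.9997). With age as a covariate the first fell to 0.87 (p = 0.0962). After thinning, the share of CD8A-positive cells that held CCL5 was 35.6% ± 15.7 (SD, n = 7) for the healthy group and 50.4% ± 23.2 (SD, n = 10) for the OS group. Effector cells made up 71.9% ± 10.3 (healthy) and 68.1% ± 16.7 (OS) of these cells. The third test below 0.05 was CXCL16 in effector CD8 T cells, which rests on 12 UMIs.

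CCL4 in CD8A-positive cytotoxic cells ran from 361 through 504 to 663 CPM in healthy dogs and from 293 through 446 to 592 in the OS group, a log2 fold change of -0.13 with a standard error of 0.176 (edgeR adjusted p = 0.9999). The difference in effect between CCL5 in effector and in memory CD8 T cells was 0.13 on the log2 scale (permutation test, adjusted p = 0.786), and the adjusted p was the same for each of the 5 differences in effect between classes that were tested.

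In myeloid cells CXCL8 ran from 30.8 CPM through 653 to 6986 in healthy dogs and from 233 through 964 to 9028 in dogs with OS, and the groups overlapped. Its log2 fold change was 0.23 with a standard error of 0.906 (edgeR p = 0.806, adjusted p = 0.9873), and it was -0.40 without OS dog 2 and 1.13 without healthy dog 1. In neutrophils alone it was 0.60 with a standard error of 0.425 (edgeR p = 0.169), from 779 through 2344 to 5187 CPM in healthy dogs and 1108 through 2877 to 12551 in dogs with OS.

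The myeloid comparisons of CCL4, CCL3 and CXCL10 also turned on healthy dog 1. CCL4 ran from 0.304 through 47.6 to 1849 CPM in healthy dogs and from 3.61 through 165 to 1421 in the OS group, a log2 fold change of 0.19 with a standard error of 1.28. Without healthy dog 1 the highest healthy dog stood at 189 CPM and the log2 fold change was 2.95 with a standard error of 1.31 (edgeR p = 0.0369, adjusted p = 0.576). CCL3 had a log2 fold change of -0.05 with a standard error of 1.21, and 2.47 with a standard error of 1.21 without this dog (edgeR p = 0.056, adjusted p = 0.600). DESeq2 gave 2.69 for CCL4 and 2.32 for CCL3 (p = 0.0126 and 0.0243), after it had replaced the counts of healthy dog 1, 19090 by 1114 and 9749 by 513. Without healthy dog 1 edgeR called 0 members, with 8 at an unadjusted p below 0.05, while the share of all genes below 0.05 was 8.41% in myeloid cells, 8.9% in monocytes, 6.5% in all leukocytes, 5.28% in neutrophils, 4.76% in effector CD8 T cells, 4.6% in CD8A-positive cytotoxic cells and 4.52% in CD4 T cells. The 8 were CCL4 in myeloid cells, monocytes and neutrophils, CCL3 in neutrophils, all leukocytes and CD4 T cells, and CXCL10 in all leukocytes and CD8A-positive cytotoxic cells. In this fit the log2 fold change of CCL4 was 2.81 in monocytes and 1.08 in all leukocytes. That of CCL3 was 2.35 in monocytes, 2.03 in all leukocytes and 2.33 in CD4 T cells.

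CXCL10 and CXCL16 in myeloid cells overlapped between the groups. CXCL10 ran from 0 through 4.998 to 41.9 CPM in healthy dogs and from 0.886 through 13.6 to 34.7 in the OS group, and its log2 fold change was 0.63 with a standard error of 0.845 (edgeR p = 0.464, adjusted p = 0.938). When healthy dog 1 was left out, the highest healthy dog stood at 14.2 CPM and the log2 fold change was 1.72 with a standard error of 0.858 (edgeR p = 0.0605, adjusted p = 0.607). The log2 fold change of CXCL10 without this dog was 1.64 in monocytes (edgeR p = 0.0652) and 1.06 in all leukocytes (edgeR p = 0.0479, adjusted p = 0.761), against 0.64 and 0.52 with it. CXCL16 ran from 14.7 through 33.8 to 38.9 CPM and from 22.2 through 29.2 to 40.6, with the smallest standard error of the members in myeloid cells, a log2 fold change of 0.0015 ± 0.191 (edgeR adjusted p = 0.9993).

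**Figure D5:**
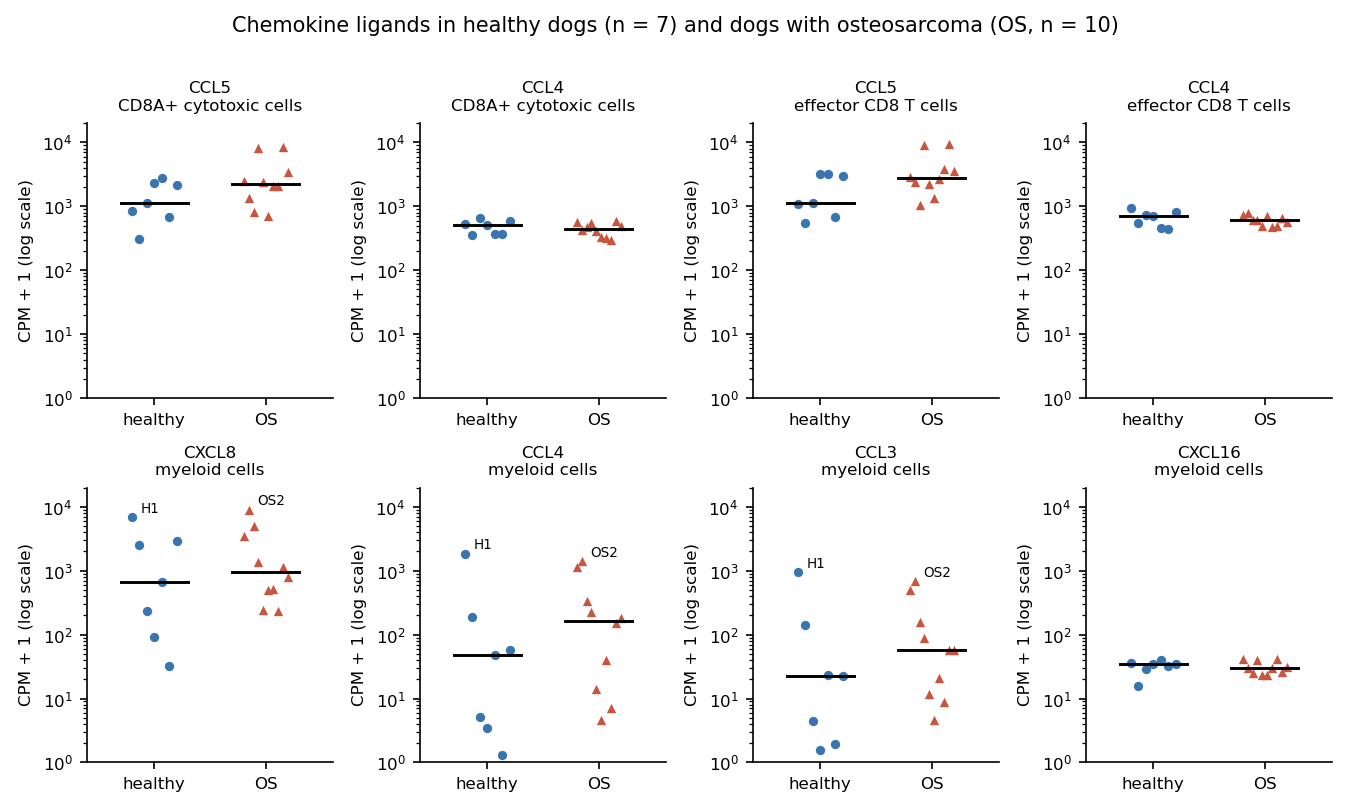
CPM with 1 added, on a log scale, of CCL5 and CCL4 in CD8A+ cytotoxic and effector CD8 T cells (upper row) and of CXCL8, CCL4, CCL3 and CXCL16 in myeloid cells (lower row), 1 point per dog, with black lines at the medians and healthy dog 1 (H1) and OS dog 2 (OS2) marked. The groups overlap in every panel, and H1 lies at 1849 CPM of CCL4 where the next healthy dog lies at 189.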

How the data were processed

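Leukocytes from 7 healthy dogs and 10 dogs with osteosarcoma had been profiled with 10x 3' chemistry. The deposited counts are whole UMIs per gene and barcode, which the authors made with Cell Ranger 7.0.0 against CanFam3.1. Whether intronic reads were counted in the deposited run is not given in the sources used here. Barcodes numbered 1332 to 7748 per dog.

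A barcode counted as a cell at over 200 but under 4500 genes, over 500 but under 20000 UMIs, and a mitochondrial share under 10%. Cells were scored against simulated doublets and the highest were removed, at a rate in proportion to the cells of the library. Cells were clustered by the Leiden method after correction across dogs (2000 genes, 30 components, 20 neighbors, resolution 1), leaving 133 genes out, and clusters were named from markers.

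UMIs were summed per dog and class (at least 25 cells). Levels are CPM, and log values add 1. Relations between genes over dogs within myeloid and within CD8A-positive cytotoxic cells used CPM scaled by TMM factors. Classes were compared with paired permutation tests (two-sided, exact below 10 dogs, otherwise 100000 resamples), and p-values were adjusted by Benjamini-Hochberg. Which classes were paired followed from the levels in the same dogs. Groups were compared with edgeR 4.0.16 (TMM, at least 10 counts), with DESeq2 1.42.0 as an alternative. On simulated counts for CD8A-positive cytotoxic cells (12664 genes), edgeR recovered 66.3% of genes changed 2-fold. Those genes were drawn at random from all genes at 10 CPM or more. The share is no measure of power for a member, and CCL5 and CXCL8 varied widely between dogs. Nothing says that dogs were sampled more than once, and the labels give no batch. Genes named are the members, the partner, receptor, ligand and marker lists, and the 3 genes most like each member. The members and lists were chosen with earlier results of these data known. Intervals cover counting error only. Alternatives varied the scaling, filters, doublets, correction, resolution, age and replicate block, and left out healthy dog 1 in all populations and each other dog in some. Analyses used R 4.3.3 and Python 3.11.15. The result for 1 receptor is not reported here.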

Additional observations from a re-analysis of the deposited data

Results flagged for a closer look

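In 12 of 54 groups of dogs tested, 1 dog lay farther from the rest than Dixon's 95% critical value allows, and chance alone flags about 1 in 20 for normal values. The values were CPM, which span orders of magnitude, and on the scale of log2(CPM + 1), tried after the data had been seen, 0 of the 12 passed. Healthy dog 1 accounts for 11 of them. In monocytes it stood at 2065 CPM for CCL4 (next healthy dog 232.9), 1050 for CCL3 (next 175.8), 7512 for CXCL8 (next 2968) and 47.3 for CXCL10 (next 17.7). In myeloid cells it stood at 1849 CPM for CCL4 (next 188.8), 944 for CCL3 (next 142.4), 6986 for CXCL8 (next 2877) and 41.9 for CXCL10 (next 14.2). In all leukocytes it stood at 605 CPM for CCL4 (next 128.0) and 282 for CCL3 (next 54.6), and in CD4 T cells at 47.3 CPM for CXCL8 (next 19.6). Among dogs with OS, OS dog 2 stood at 10638 CPM of CXCL8 in monocytes (next 5196). The cell classes overlap, so these are not independent of each other.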

How the results depend on the processing

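With each dog left out in turn, the log2 fold change of CXCL8 in myeloid cells ran from -0.40 to 1.13. That of CCL5 in CD8A-positive cytotoxic cells ran from 0.845 to 1.36. Each dog was also left out in monocytes and neutrophils. All leukocytes, effector CD8 T cells and CD4 T cells were refitted without healthy dog 1 only. edgeR called 0 members in these fits. The CXCL8 value turned negative without OS dog 2 alone (-0.40). The alternative without healthy dog 1 over all members was chosen after the data had been seen. With no correction across dogs, CCL5 in effector exceeded memory CD8 T cells by 1.42 (adjusted p = 0.00722). With doublets kept, plasmacytoid dendritic cells were lower in CXCL16 than dendritic cells (-0.53). Without thinning the variance over the mean was 28.2 for CCL5 and 20.3 for CXCL8. The relation of CCL5 with CCL3 had r = 0.353 and with GZMB r = 0.706 in healthy dogs, and with GZMA r = 0.369 in dogs with OS and 0.505 without TMM factors. That of CXCL8 with CXCL16 had r = 0.012 in dogs with OS. The cause of these shifts was not tested. For CCL5 with IFNG r was -0.775 in healthy dogs and 0.663 in dogs with OS, but with 86 UMIs of IFNG no relation is read from them.

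Other log2 fold changes whose sign turned are given with the main value in parentheses. With age as a covariate they were -0.16 (0.21), -0.33 (0.19) and -0.30 (0.24) for CCL4 in all leukocytes, myeloid cells and monocytes, -0.33 (0.089), -0.18 (0.36) and -0.46 (0.0092) for CCL3 in all leukocytes, CD4 T cells and monocytes, -0.47 (0.65) and -0.17 (0.23) for CCL5 in myeloid cells and neutrophils, and -0.025 (0.0015) for CXCL16 in myeloid cells. For CCL3 in myeloid cells DESeq2 gave 2.32 (-0.046). With no correction across dogs, CXCL16 in myeloid cells gave -0.0013 (0.0015) and CCL3 in monocytes -0.0022 (0.0092), and the looser cell filter gave -0.062 for the latter. Without healthy dog 1, CCL4 in effector CD8 T cells gave 0.0071 (-0.11), CXCL16 in CD4 T cells -0.037 (0.23), CCL3 in myeloid cells 2.47 (-0.046) and CCL5 in neutrophils -0.032 (0.23). None of these fits called a member.

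Dogs share replicate numbers across groups, but the numbers do not pair them: same-numbered dogs deviated together (r above 0.1) in 4, 3 and 5 of 7 pairs in all leukocytes, CD8A-positive cytotoxic and myeloid cells, and 3, 0 and 1 of 14 dogs correlated best with their own number. With the replicate block (7 pairs) the log2 fold change was 0.69 for CCL5 in CD8A-positive cytotoxic cells (edgeR p = 0.0752) and 1.51 for CXCL8 in myeloid cells (p = 0.184), CCL3 gave -0.079 (0.28) in CD8A-positive cells and 1.72 (-0.046) in myeloid cells, CXCL16 gave -0.023 (0.0015) in myeloid cells and 0.078 (-0.72) in neutrophils, and 0 members were called, while 10 of all 9521 genes were called in neutrophils and 0 in the other populations. Members at an unadjusted p below 0.05 with the block were CXCL8 in neutrophils (0.57, edgeR p = 0.0118, adjusted p = 0.872) and in CD8A-positive cells (1.33, p = 0.0479), and CCL3 in CD4 T cells (1.26, p = 0.0326). Of all genes in these fits, 367 of 9521 in neutrophils, 363 of 12408 in CD8A-positive cells and 338 of 14299 in CD4 T cells lay below 0.05.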
